A study of Mus musculus with 14 samples.

Results

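The lung that carried tumour was compared with control lung across all genes, using the 5 libraries titled as tumour-bearing lung and the 3 titled as control lung, 8 of the 14 libraries of the series. The series measured RNA in lung and calf muscle to look for targets shared by cachexia, the wasting of muscle in cancer, and the muscle side effects of immune therapy. All mice were males of the C57BL/6 strain (C57BL/6NCrlOri) aged 6 to 8 weeks, and those of the tumour-bearing group received 5000000 cells of a tumour line through the trachea. What control mice received, the time between injection and collection, and the share of each sampled lung that was tumour are not stated in the sources used here. All tumours came from 1 cell line, and the abbreviations TB and CON in the titles were read as tumour-bearing and control. Nothing in the labels says that libraries of a group came from separate animals, so p-values reflect how these libraries vary, and that variation could be technical. The sources used here also do not say the sex of the animal that the line came from.

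The lung surface is made by thin alveolar type 1 cells, through which gas passes, and by type 2 cells that secrete surfactant, while club and ciliated cells line the airways and a dense capillary bed surrounds the air spaces. The transcription factor Nkx2-1 keeps lung epithelium in its own lineage. Lung adenocarcinomas of mice that lose it are known to take on transcripts of stomach, gut and liver, which Hnf4a and the Foxa factors control in those organs.

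Of 19300 genes with enough counts, 5862 (30.4%) were called higher and 5651 (29.3%) lower in tumour-bearing lung, which is 59.7% of all genes tested (edgeR's quasi-likelihood test, Benjamini-Hochberg adjusted p below 0.05), where 63.8% had an unadjusted p below 0.05. The median log2 change of all genes was 0.07. Large changes leaned downward: 2121 genes (11.0%) were called higher and 3455 (17.9%) lower by at least 4-fold, and 555 (2.88%) higher and 761 (3.94%) lower by at least 32-fold. For 63.0% of genes the 5 tumour-bearing values lay all above or all below the 3 control values, 30.9% above and 32.1% below. With so many genes called, the count of calls in a gene list is read below against these shares, and its median against 0.07. A count near these shares is no trait of the list. When the deposited TPM, transcripts-per-million after division by length, were tested in place of counts, as log2(TPM + 1), the median gene moved to -0.23 and 31.0% of the calls were higher, against 50.9%. Directions are relative to the scaling of counts, and values with log2(TPM + 1) are given beside a list where they turn its median or move a count of its calls by over 1.5 times, a pair of counts being risers and then fallers. That scale shrinks the changes of genes at low levels. Values after ± are standard deviations (SD) over the 3 controls unless another n is given, and single values follow the order of libraries 1 to 5.

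**Figure D1:**
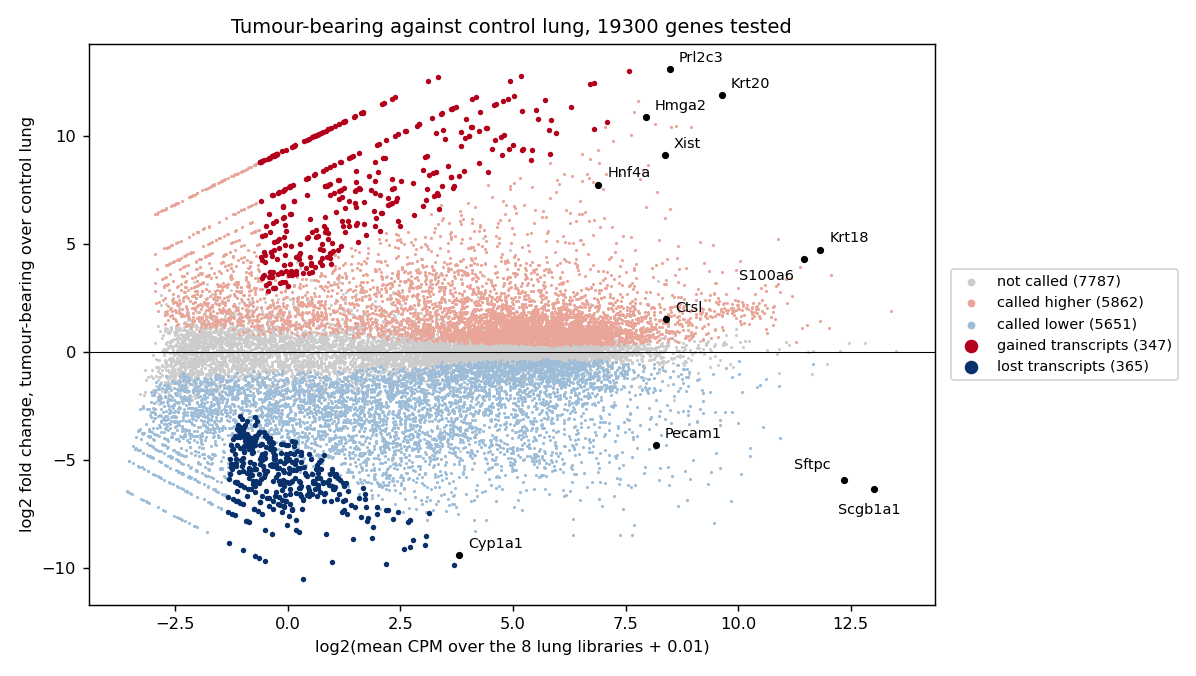
Each point is 1 of 19300 genes, with its mean level over the 8 lung libraries (log2 CPM, counts-per-million of the scaled library) on the horizontal axis and the log2 fold change of tumour-bearing over control lung on the vertical axis. Gained transcripts (347, dark red) form the upper edge and lost transcripts (365, dark blue) the lower one; the surfactant gene Sftpc and the airway gene Scgb1a1 are abundant genes far below 0, and Krt18 and S100a6 abundant genes far above it.

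Depth did not separate the groups, with 50157111 to 55987871 counts in control and 47947363 to 61087315 in tumour-bearing libraries, but the shares of ribosomal protein and haemoglobin genes did. Genes of cytosolic ribosomal proteins took 2.90% to 2.98% of counts in control and 8.87% to 12.1% in tumour-bearing libraries, and haemoglobins 0.571% to 0.780% against 0.0123% to 0.146%. Mitochondrially encoded genes took 3.66% to 4.30% against 1.57% to 3.71%, and there tumour-bearing library 1 lay above control 1. Between 14772 and 14909 genes reached 1 CPM in a control library and between 13671 and 14100 in a tumour-bearing one. Immediate early and heat shock genes, which cells switch on within minutes of disturbance, were high in all controls: of 16 tested, 11 fell and 0 rose, with a median of -2.59. Jun, a subunit of the AP-1 transcription factor, had 1964, 1499 and 1528 CPM in the controls and 21.4, 16.3, 19.5, 36.1 and 26.6 in tumour-bearing libraries 1 to 5. The inducible heat shock gene Hspa1a had 1255 ± 57.9 CPM in controls (SD, n = 3) and 2.20 to 88.6 in tumour-bearing lung. The nuclear receptor gene Nr4a1 fell by 3.71 (adjusted p = 2.36e-06). The part of these differences in the results below was not tested.

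Genes of the lung's own epithelium fell without exception among the alveolar markers: all 13 tested markers of type 2 cells (median -4.45) and all 13 of type 1 cells (median -4.91) were called lower, and none of these 26 had overlapping groups. Sftpc, which encodes surfactant protein C (ENSMUSG00000022097), had 14897, 13085 and 12747 CPM in controls 1 to 3 and 479.9, 2.48, 453, 146 and 34.5 CPM in tumour-bearing libraries 1 to 5. Every tumour-bearing library was far under every control, and libraries 2 and 5 held the least. The change was -5.93 on the log2 scale (SE 1.28, adjusted p = 0.00339). Ager, a receptor abundant on type 1 cells, went from 1822 ± 202 (SD, n = 3) to 74.3, 6.11, 123, 111 and 40.5 CPM (log2 change -4.68, SE 0.75, adjusted p = 6.42e-04). Cav1, of the membrane pits of type 1 and vessel cells, and Pdpn, a membrane protein of type 1 cells, fell by 3.25 and 3.37 (adjusted p = 2.07e-05 and 3.68e-05). Lpcat1, which makes the main surfactant lipid, fell by 3.25 on the log2 scale (adjusted p = 3.40e-06) with a narrow range of 23.2 to 39.1 CPM, and Abca3, the lipid transporter of surfactant granules, kept 119 to 167 CPM against 447 ± 4.57 in controls (adjusted p = 2.44e-05). Hc, which encodes complement C5, made by type 2 cells, fell by 6.14 (adjusted p = 1.41e-05).

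Airway genes followed. Of 11 club and secretory genes 9 fell and 1 rose, and of 13 ciliated genes 12 fell and 0 rose (medians -3.85 and -5.57). Scgb1a1, the secretoglobin that club cells release, had 19664, 23236 and 22342 CPM in controls and 178, 5.89, 938, 164 and 56.97 in tumour-bearing libraries 1 to 5, a change of -6.34 (SE 1.27, adjusted p = 0.00226). Per unit of length it had been the most abundant of the losers, falling from 113250 ± 8431 TPM (SD, n = 3) to 1076 ± 1595 (SD, n = 5). The secretoglobin gene Scgb3a2 and the airway defence gene Bpifa1 were left at 0.476 to 7.19 and 0.0852 to 3.03 CPM, from 399 ± 36.2 and 214 ± 97.7 (adjusted p = 6.74e-05 and 1.62e-04). The exception was Muc5b, the main airway gel mucin, which rose by 2.54 (adjusted p = 0.0136, but 0.0510 without control 3, 0.0916 on log2(TPM + 1) and 0.0839 on log2(TPM + 0.1)) with 751, 211, 1102, 599.8 and 97.3 CPM against 94.7 ± 4.46 in controls. Library 5 overlapped the controls, and the other tumour-bearing libraries lay above them. Foxj1, the master regulator of motile cilia, fell to 4.27, 20.2, 3.88, 20.01 and 1.61 CPM from 96.3 ± 1.54 (log2 change -3.27, adjusted p = 0.00445), and libraries 2 and 4 held the most. The mean of the ciliated list did not follow in library 2, at -4.90, -6.34, -4.39, -4.37 and -6.36 from the controls (log2). Its summed CPM was highest in libraries 4 and 2. Tppp3, a tubulin-binding protein, and Rsph1, of the radial spokes of cilia, fell by 6.04 and 4.81 (adjusted p = 6.93e-06 and 3.12e-05). Dnah5, a dynein motor of cilia, stood at 0.0198 to 0.579 CPM in tumour-bearing libraries against 55.4 ± 1.77 in controls.

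Lineage transcription factors of the lung fell too, 17 of 24 (median -3.60). Nkx2-1 had 132, 116 and 114 CPM in controls and 8.06, 0.0793, 9.59, 5.07 and 4.21 in tumour-bearing libraries 1 to 5 (log2 change -4.48, SE 0.88, adjusted p = 0.00202). Library 2 stood apart at the level of a few counts. Foxf1, a factor of lung mesenchyme and endothelium, fell by 5.09 and Sox17, a factor of arteries, by 4.22 (adjusted p = 5.02e-06 and 3.26e-06). Sox9, a factor of the growing tips of the embryonic lung and of many tumours, was the 1 member that rose, from 0.737 ± 0.160 to 104, 51.6, 49.0, 41.0 and 109 CPM (log2 change 6.59, adjusted p = 1.28e-05). The endoderm factors Foxa1, Foxa2 and Gata6 did not pass, with log2 changes of 0.45, -0.36 and 0.02 (adjusted p = 0.151, 0.612 and 0.953).

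Vessel and stromal genes fell, the endothelial ones to a level that was close among the 5 libraries. In the endothelial list 17 of 18 genes fell (median -4.17), and their summed level was 5.53% to 7.49% of the control mean. Pecam1, which encodes the junction protein CD31, had 748, 696 and 683 CPM in controls and 31.3, 30.5, 43.2, 36.3 and 38.0 in tumour-bearing libraries (log2 change -4.31, SE 0.17, adjusted p = 8.26e-07), and Cdh5, VE-cadherin, 39.9, 43.8, 46.0, 33.0 and 49.4 against 826 ± 55.8 (log2 change -4.28, SE 0.17, adjusted p = 8.32e-07). Tumour-bearing values of these genes lay within 1 narrow band, far from the controls. Apln, which encodes a ligand released by the tips of sprouting vessels, did not pass (log2 change -1.31, adjusted p = 0.186, 6.81, 5.12, 6.74, 20.7 and 69.4 CPM), and library 5 lay above the control mean of 53.7 ± 1.56; without library 5 it passed as lower (0.00281), as it did on both TPM scales (up to 0.0166). All 16 lung fibroblast genes fell (median -4.62) and varied more, with a summed level of 6.38% to 13.3% of the control mean. Mfap4, a microfibril protein, went from 434 ± 48.5 to 2.91 to 9.47 CPM (log2 change -5.88, adjusted p = 4.47e-06), and Macf1, which links actin to microtubules, fell by 2.93 (adjusted p = 4.02e-06). In bulk RNA, fewer cells of a type and less RNA per cell cannot be told apart, and neither can a loss of lung cells from their dilution by other cells.

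Smooth muscle and pericyte genes fell in 10 of 13 (median -2.33), Lmod1, of actin filaments, by 4.16 and Des, desmin, by 3.15 (adjusted p = 5.00e-06 and 9.50e-06), and Acta2, smooth muscle actin, which activated fibroblasts also make, was 67.0, 168, 51.5, 87.5 and 83.7 CPM against 169 ± 33.2 and did not pass (adjusted p = 0.0518, but 0.00190 without library 2, and up to 0.00488 on the TPM scales). Lymphatic genes fell in 6 of 7, Lyve1 by 3.94, while Prox1, a factor of lymphatic and liver cells, rose by 2.40 (adjusted p = 0.00149). Mesothelial genes split, with 3 of 7 higher and 3 lower (median 0.02, -0.19 with log2(TPM + 1)): the keratin genes Krt8 and Krt19 and the surface protein gene Msln rose, as the epithelial genes below did, and Upk3b, Lrrn4 and Upk1b fell. Genes of the heart muscle that sheathes the pulmonary veins fell in 11 of 13, the myosin chain gene Myl3 to 0 to 0.0595 and Myh7 to 0 to 1.35 CPM, from 1.46 ± 0.0464 and 19.7 ± 2.31 (adjusted p = 1.46e-04 and 7.24e-04). Their summed level also ranged from 380.3 to 956 CPM among the controls. Of 8 red cell genes 7 fell, Alas2, of haem synthesis, by 3.34 and the haemoglobin chain Hbb-bt by 3.25 (adjusted p = 5.06e-04 and 0.00128). Of 8 fat cell genes 5 fell, Plin1, which coats fat droplets, to 0 to 0.0198 from 1.54 ± 0.201 CPM and the lipase Lipe by 1.91 (adjusted p = 2.15e-05 and 4.37e-04), and of 14 neuroendocrine and neural genes 6 fell (10 with log2(TPM + 1)), among them the vesicle protein Syp by 3.85 (adjusted p = 2.37e-05), while 3 rose, Insm1, Ncam1 and Scg2. Cytochrome P450 genes of the lung fell in 9 of 16, Cyp1a1, an enzyme that oxidises aromatic pollutants, from 37.1 ± 2.92 CPM to 0.0164, 0.0198, 0.187, 0.0207 and 0 (adjusted p = 1.30e-05), Cyp2d22 by 3.84 (adjusted p = 2.31e-06), and Cyp51, of cholesterol synthesis, rose by 2.43 (adjusted p = 1.03e-05).

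**Figure D2:**
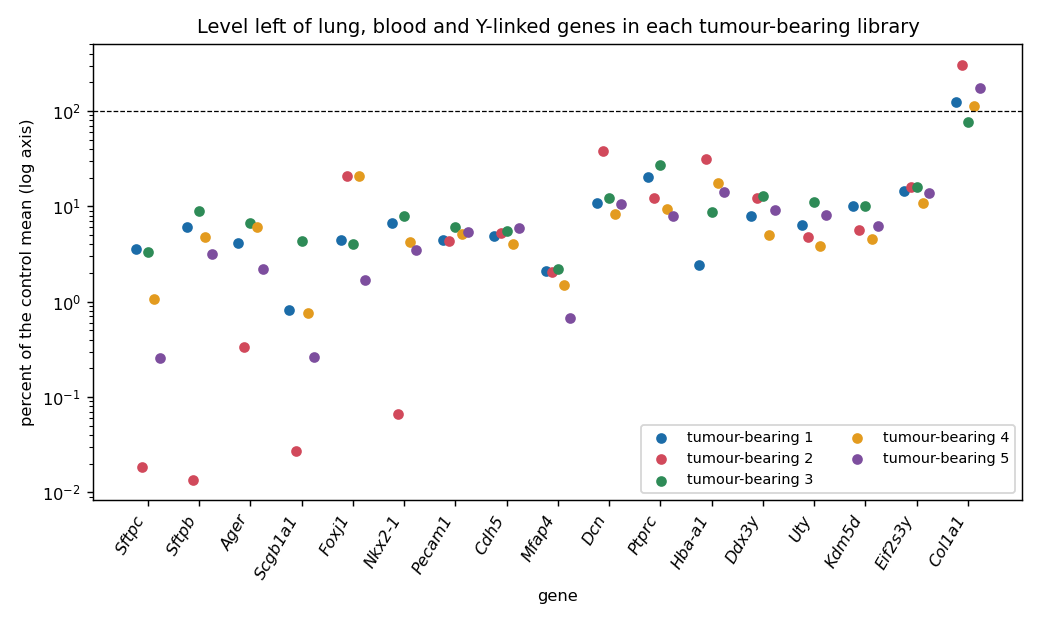
Level of 17 genes in each tumour-bearing library as a percent of the control mean, on a log axis; the dashed line marks 100%. Pecam1 and Cdh5 lie within 3.997% to 6.09% in all 5 libraries and the Y-linked genes within 3.83% to 16.1%, while surfactant genes span a far wider range, with library 2 lowest, and Col1a1 lies around the control level.

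All mice were male, and whether the injected cells carry a Y chromosome is not stated in the sources used here. The 4 Y-linked genes tested were called lower and lay under every control in every tumour-bearing library, at a summed level of 6.10% to 12.99% of the control mean. Ddx3y, an RNA helicase, had 86.9, 84.7 and 91.9 CPM in controls and 6.95, 10.8, 11.19, 4.41 and 8.12 in tumour-bearing libraries 1 to 5 (log2 change -3.41, SE 0.28, adjusted p = 1.83e-05), and Eif2s3y, a translation factor subunit, and Kdm5d, a histone demethylase, changed by -2.82 and -3.77 (adjusted p = 5.86e-06 and 1.68e-05). Xist, the long RNA that silences an X chromosome in female cells, had 0.976, 0.841 and 0.980 CPM in controls and 1170.5, 775, 9.16, 649.6 and 27.1 in tumour-bearing libraries (log2 change 9.14, SE 1.87, adjusted p = 0.00257). Libraries 1, 2 and 4 held far more of it than libraries 3 and 5, with all 5 above the controls, and its call was lost in limma-voom (adjusted p = 0.0522).

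Of the 12 largest increases in TPM among called genes without overlap, 7 were of ribosomal protein genes. The largest single gain was that of S100a6, a small calcium-binding protein of growing cells, from 771 ± 71.1 (SD, n = 3) to 12170 ± 3134 TPM (SD, n = 5), followed by the elongation factor Eef1a1. The glycolytic enzyme Gapdh, the actin-binding peptide Tmsb10 and the keratin Krt18 were the others of the 12. Keratins of simple epithelium rose together: Krt18 from 211 ± 2.26 to 4806, 4586, 4494, 6498 and 8038 CPM (log2 change 4.75, SE 0.31, adjusted p = 5.98e-06), Krt8 by 3.96, Krt7 by 3.46 and Krt19 by 2.96. None of these 4 had overlapping groups. Of 22 junction and adhesion genes 13 rose and 2 fell, with a median of 1.73. Cldn2, a claudin that makes tight junctions leaky to cations, rose from 0.424 ± 0.119 to 726, 503, 574, 766 and 348 CPM (log2 change 10.42, adjusted p = 1.07e-06), and Cldn6, a claudin of embryonic epithelium, from 0.287 ± 0.0801 to 75.7, 468, 101, 135 and 167 CPM (adjusted p = 3.60e-05). Epcam, an epithelial adhesion molecule, had 449, 1384, 105, 778 and 319 CPM against 63.4 ± 1.82 in controls (log2 change 3.26, SE 0.75, adjusted p = 0.00493), and library 3 was the lowest. Cdh1, which encodes E-cadherin, rose by 1.05 (SE 0.19, adjusted p = 0.00118), a call lost in a fit of all 14 libraries (0.0811). Cldn1 and the junction scaffold Tjp1 fell.

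Genes of gut, stomach and liver were among the strongest increases. Of 26 tested genes of gut and stomach epithelium 18 rose and 0 fell (median 7.09, against 0.07 for all genes). These counts were 13 and 2 with log2(TPM + 1), at a median of 2.86. Krt20, a keratin of the intestinal and gastric surface (ENSMUSG00000035775), had 0.472, 0.252 and 0.254 CPM in controls and 1109.7, 889.6, 1145, 1696 and 1546 in tumour-bearing libraries 1 to 5 (log2 change 11.92, SE 0.48, adjusted p = 8.32e-07). All 5 libraries held it at a similar, high level. Hnf4a, a nuclear receptor that governs liver and gut genes, had 0.878, 0.992 and 0.726 CPM in controls against 214, 170.1, 241, 169 and 151 (log2 change 7.77, SE 0.28, adjusted p = 7.05e-07). The 5 values again lay close together. Cdx2, the factor that sets intestinal identity, was less even, at 19.1, 0.893, 7.58, 11.4 and 4.45 CPM with a control mean of 0.00561 ± 0.00971 (adjusted p = 3.50e-04), and library 2 held the least. Cdh17 (liver-intestine cadherin), Vil1 (the brush border protein villin) and Onecut2 (a liver and gut factor) were each above all controls in every tumour-bearing library. Gata4, an endoderm factor, did not pass, nor did the secreted gastric mucin gene Muc5ac or the membrane mucin gene Muc1 (log2 changes -0.39, 0.63 and 0.71, adjusted p = 0.659, 0.620 and 0.415).

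Of 18 liver genes 14 rose and 1 fell (median 5.36), a count of risers that was 9 without control 1 or control 2. With log2(TPM + 1) 9 rose, at a median of 2.62. Of the 18 genes, 5 were gained transcripts as defined below, which could pass the count filter only through tumour-bearing libraries. The direction of these 5 is therefore no finding of its own, and the median includes them. Ambp, a secreted protease inhibitor, reached 122, 60.2, 51.9, 205 and 54.5 CPM from a control mean of 0.0823 ± 0.0980 (adjusted p = 3.52e-05) and Foxa3, a liver and gut factor, 37.7, 10.4, 10.5, 20.1 and 15.8 from 0.294 ± 0.0275 (adjusted p = 4.11e-05). Apoa1, the main protein of high density lipoprotein, had 1814, 137.3, 398, 1408 and 218 CPM against 0.577 ± 0.110 (log2 change 10.42, adjusted p = 1.52e-04), highest in libraries 1 and 4. Alb, serum albumin, ranged from 0.0734 to 59.4 CPM, with library 5 below the control mean of 1.02 ± 0.0941, and its call (log2 change 4.94, adjusted p = 0.0193) did not hold when any 1 control was left out (up to 0.0685), in limma-voom (0.275) and on both TPM scales. Hamp, the liver hormone that limits iron uptake, was the 1 member called lower (adjusted p = 0.0493), a call that needed every control (up to 0.119 with 2 of them) and was lost without library 1, 3, 4 or 5 (up to 0.0918).

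Transcripts gained with tumour were defined as genes called higher, under 0.2 CPM in each control library and, averaged over the tumour-bearing ones, at 1 CPM or more. There were 347 of them, 255 protein coding (73.5%) and 36 of the lincRNA class (10.4%), and 57 had no count in any control. The direction is fixed by that definition and is no finding of its own. In each tumour-bearing library they took 0.276% to 0.622% of counts, against 0.00169% to 0.00179% in controls. How widely they were shared varied: 122 reached 1 CPM in all 5 tumour-bearing libraries, 81 in 4, 60 in 3, 72 in 2 and 12 in 1. In muscle, 307 of the 347 (88.5%) stayed under 0.2 CPM in every library of both groups.

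The gained transcripts were 1.80% of all genes tested. Families were put together by symbol after values were seen, so their shares cannot be weighed against that percentage. In a set named for the brush border, the carpet of microvilli on gut and kidney cells, 9 of 12 tested genes were gained (Cdhr5, Cdhr2, Alpi, Anks4b, Myo7b, Myo1a, Mep1a, Sis and Ush1c). Cdhr3 and Cdhr4, taken in by symbol alone, were called lower, and the set left out Vil1 and Eps8l3. The gained transcripts held 4 of 5 of the onecut, HNF4 and CDX factors (Onecut2, Cdx2, Onecut3 and Hnf4g, while Hnf4a was called higher without being gained), and 6 of 9 trefoil, gastrokine and Reg genes of mucosal defence (Tff3, Tff1, Reg3b, Gkn2, Gkn1 and Reg4). Granzymes and mast cell proteases gave 6 of 13, the alpha-1 antitrypsin genes 3 of 5, apolipoproteins 5 of 15 and small proline-rich and cornified envelope genes 4 of 6. Shares were lower in larger families: 7 of 44 cytochrome P450 genes (14 called higher and 19 lower), 5 of 48 histone genes and 6 of 29 keratins. The calls of Reg3b and of Ush1c did not hold when any 1 control was left out (up to 0.0826) or on either TPM scale, and with log2(TPM + 1) those of Gkn1, Myo1a and Sis were lost too (0.0554, 0.118 and 0.112). By the same definition Lin28b, an RNA-binding protein of embryonic cells with no control count, was not counted as gained, since its mean was below 1 CPM (0.851, 0.972, 0.920, 0.517 and 0.196 CPM).

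Some gained transcripts sat at similar levels in all 5 libraries. Syt8, a synaptotagmin of secretory epithelium, had 103, 83.3, 76.3, 138 and 48.7 CPM against a control mean of 0.153 ± 0.0130 (adjusted p = 2.10e-06). Gpa33, a surface antigen of intestinal cells, had 178, 260.3, 108, 306 and 242 (control mean 0.130 ± 0.0329, adjusted p = 1.66e-06), and Eps8l3, of the brush border, 171, 99.9, 149, 222 and 242 (control mean 0.0271 ± 0.0470, adjusted p = 5.00e-06). The highest library of each was less than 3 times the lowest. Others varied more: Gcnt3, which branches mucin sugars, ranged from 52.1 to 259.7 CPM (adjusted p = 1.41e-05), Anxa13, an annexin of gut and kidney epithelium, from 32.9 to 396 (adjusted p = 5.22e-05) and Clrn3, a clarin family membrane protein, had 16.1, 0.912, 18.0, 11.3 and 23.02 CPM (adjusted p = 8.52e-04), lowest in library 2. Dynap, a membrane protein, ranged from 7.10 to 152 CPM (adjusted p = 1.55e-04).

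The most abundant gained transcripts per unit of length were those of proliferins, placental hormones of the prolactin family that cultured mouse cells can also make. Prl2c3 had 0.0163, 0.118 and 0.0544 CPM in controls and 91.2, 49.6, 261, 441 and 2014 in tumour-bearing libraries 1 to 5, and Prl2c2 0.0488, 0.0505 and 0 against 50.3, 27.3, 179, 189 and 1085 (adjusted p = 4.53e-04 and 5.02e-04). All tumour-bearing libraries lay above the controls, and library 5 far above the other 4. The 2 genes made up 4.42%, 5.16%, 21.5%, 17.3% and 61.6% of the summed TPM of gained transcripts in libraries 1 to 5. Their transcripts were 97.8% identical in the GENCODE annotation, so the division of reads between them is uncertain. The prolactin, pregnancy-specific glycoprotein and ectopic granzyme list has 20 genes, of which 10 were tested. Of these 9 rose and 0 fell, with a median of 9.04. The median was 6.95 with 2 genes that had no control count set against an unscaled floor of 3 counts per control library. The whole list summed to 0.407 to 0.942 CPM in controls, so most members could pass the count filter only through tumour-bearing libraries. Their direction is therefore no finding of its own. Psg17, a pregnancy-specific glycoprotein, had 10.6, 3.27, 2.47, 5.42 and 10.8 CPM against 0.192 ± 0.0255 (adjusted p = 2.21e-04). Gzme, a granzyme of mouse placental and activated killer cells, had 1.96, 129, 73.8, 13.5 and 25.7 CPM and a single count in the controls (adjusted p = 7.57e-04). Libraries 2 and 3 held the most and library 1 the least. Gzma and Prf1, the granzyme and perforin of killer lymphocytes in general, did not follow: Gzma fell by 3.78 (adjusted p = 0.00872) and Prf1 did not pass (log2 change -1.27, adjusted p = 0.249), though it passed as lower without library 3 (9.06e-04) and on both TPM scales (up to 0.0293). Gzmd and Gzme are 90.0% identical, and Serpina1c and Serpina1d 94.3%, with the same limit on their values. Mcpt1 and Mcpt8, mast cell and basophil proteases, rose, while Kit and Gata2, the growth factor receptor and a transcription factor of mast cells, fell by 4.65 and 5.65, and Cpa3, a mast cell protease, did not pass (log2 change -1.33, adjusted p = 0.251).

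**Figure D3:**
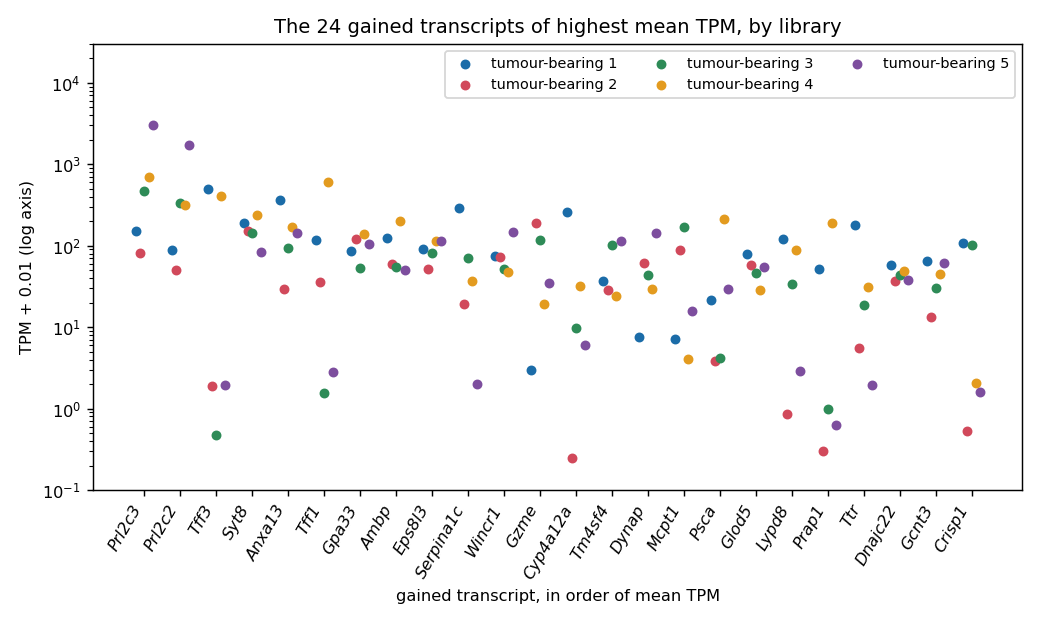
TPM (plus 0.01, log axis) of the 24 gained transcripts of highest mean TPM in each of the 5 tumour-bearing libraries. Syt8, Gpa33, Eps8l3 and Dnajc22 lie close together in all 5, while Tff3, Tff1, Prap1, Cyp4a12a and Crisp1 differ by over 100-fold between libraries, and the Prl2c genes are highest in library 5.

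Since Hnf4a was among the strongest risers, promoters were searched for letters that this factor is known to bind. Promoters were those of RefSeq (build GRCm38.p6), from 250 bases before to 50 after each start, and 211 gained transcripts had one. The HNF4 letters CAAAGTCCA, searched on both strands, were found in 5 of the 211 (2.37%) and in 150 of 27025 genes (0.555%) with such a promoter. They were found in 0.521% of genes tested, 0.736% of genes called higher and 0.480% of those called lower. As a comparison, the CCAAT box letters CCAATCAG, which many factors use, were found in 4.74% of the gained transcripts and 4.70% of all genes with a promoter. Their share was higher in genes tested (6.22%), in genes called higher (6.75%) and in those called lower (5.36%). The motifs do not overlap one another, and were chosen with the level of the factor known. A match describes letters in a window and is neither a shown binding site nor a cause.

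Of the 5 matches, Gimd1 has 2 promoter entries and Sult1b1, a sulfotransferase, holds the letters after the start. For the other 3 genes the 200 bases before the start are printed 5′ to 3′ on the strand of the gene, so that the position of the letters can be seen, and capitals mark the match, which lies on the strand of the gene in each. It begins 19 bases before the start of Alpi, the intestinal alkaline phosphatase (chr1:87101607-87101806, minus strand), 77 before that of Cyp2c68 (chr19:39741102-39741301, minus strand) and 116 before that of Cyp2c65 (chr19:39060806-39061005, plus strand), both cytochrome P450 genes of the 2C subfamily.
Alpi: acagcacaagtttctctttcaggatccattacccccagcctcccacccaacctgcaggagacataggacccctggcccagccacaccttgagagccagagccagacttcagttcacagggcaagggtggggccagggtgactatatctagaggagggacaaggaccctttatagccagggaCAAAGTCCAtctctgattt
Cyp2c68: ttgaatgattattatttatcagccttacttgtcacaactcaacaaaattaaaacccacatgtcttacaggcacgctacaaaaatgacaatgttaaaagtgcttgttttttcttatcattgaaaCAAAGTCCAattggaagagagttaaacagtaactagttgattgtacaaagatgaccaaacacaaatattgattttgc
Cyp2c65: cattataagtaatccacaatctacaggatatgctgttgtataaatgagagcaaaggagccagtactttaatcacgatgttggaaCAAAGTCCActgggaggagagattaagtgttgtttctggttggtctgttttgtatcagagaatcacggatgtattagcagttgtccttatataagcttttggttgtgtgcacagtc
Alpi had 10.03, 3.63, 21.7, 12.1 and 107 CPM in tumour-bearing libraries 1 to 5 (control mean 0.0121 ± 0.0210), most in library 5. Cyp2c68 had 28.4, 0.932, 1.38, 3.54 and 0.220 CPM (control mean 0.0108 ± 0.0188) and Cyp2c65 11.4, 0, 0.324, 0.517 and 0.122 CPM (control mean 0 ± 0), both most in library 1, and the call of Cyp2c65 did not hold when any 1 control was left out (adjusted p up to 0.0928), in limma-voom (0.0783) or on either TPM scale.

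The counterpart, 365 transcripts called lower with under 0.2 CPM in every tumour-bearing library and a control mean of at least 1 CPM, included Spata18, a mitochondrial quality gene, which had 22.3 ± 2.16 CPM in controls and 0 to 0.131 in tumour-bearing lung (adjusted p = 2.19e-05). Other lost transcripts were Pcdhac2, a protocadherin (34.5 ± 1.33 to 0 to 0.0852 CPM, adjusted p = 6.06e-06), the amino acid transporter Slc7a10, the adrenergic receptor Adra1a and the glutamate receptor subunit Gria1. Ankrd63, an ankyrin repeat gene, went from 18.2 ± 1.10 to 0 to 0.0818 CPM (adjusted p = 5.10e-06). Ogn, a small matrix proteoglycan, kept 0.579 to 2.04 CPM of 439.9 ± 52.4 and was not lost by that definition (adjusted p = 2.63e-06).

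Genes of division rose as a whole list. All 32 tested cell cycle genes were called higher (median 3.19) with no overlap in any, against 30.4% of all genes. Mki67, the proliferation antigen Ki-67, had 15.1, 21.7 and 21.1 CPM in controls and 112, 247, 196, 91.2 and 103 in tumour-bearing libraries (log2 change 2.96, SE 0.40, adjusted p = 2.37e-04). Libraries 2 and 3 held the most. Ube2c, which targets mitotic cyclins for destruction, rose by 3.84 (SE 0.28, adjusted p = 9.15e-06) and Kif20a, a kinesin of cell division, by 3.87 (SE 0.29, adjusted p = 1.18e-05).

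Genes of glucose use and respiration rose as well. Of 26 glycolysis and hypoxia genes 21 rose and 4 fell (median 2.89). Slc16a3, which exports lactate, rose from 10.4 ± 0.850 to 153, 241, 168, 264 and 293 CPM (log2 change 4.43, SE 0.29, adjusted p = 5.44e-06), Eno1, enolase, by 3.82 (adjusted p = 1.79e-05) and Slc2a1, the main glucose transporter of dividing cells, by 3.49 (adjusted p = 0.00103), the last highest in library 5. Members that fell included 2 hypoxia targets, the vessel growth factor Vegfa (261, 134, 179, 331 and 527 CPM against 671 ± 26.2, log2 change -1.23) and the vasodilator Adm, as well as Slc2a3 and Pfkfb3, and the count of falls was 2 without any 1 of the controls: the adjusted p of Vegfa was then up to 0.0591 and that of Adm up to 0.125, and Adm also did not pass without library 1, 2 or 3 (up to 0.0846). Among nuclear genes of oxidative phosphorylation 27 of 31 rose and 0 fell, by less (median 0.89). With log2(TPM + 1) 15 rose and 2 fell, at a median of 0.47. Atp5c1, an ATP synthase subunit, rose by 1.48 and Sdhd, of succinate dehydrogenase, by 1.29 (adjusted p = 2.23e-05 and 5.78e-05). Mitochondrially encoded genes did not follow, with 4 of 13 lower, near the 29.3% of all genes, and 1 higher. Their median was -0.52, and 6 were lower and 0 higher with log2(TPM + 1). Among them mt-Nd5 and mt-Nd2, subunits of complex I, fell by 1.61 and 1.58 (adjusted p = 0.00667 and 0.0140).

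Genes that RAS and ERK signalling is known to induce rose in 11 of 20 and fell in 3 (median 0.78), 7 rising without control 2 or control 3. Etv4, an ETS factor induced by ERK, went from 0.518 ± 0.182 to 108, 203, 136, 169 and 179 CPM (log2 change 8.26, SE 0.38, adjusted p = 1.31e-06), with all 5 values close together, and the ERK phosphatase Dusp5 rose by 2.98. Ereg, a ligand of the EGF receptor, rose to 23.1, 14.1, 21.1, 15.8 and 90.6 CPM from 0.791 ± 0.0533 (adjusted p = 4.10e-04), and library 5 held the most. Etv5, close in sequence to Etv4 and a type 2 cell factor in lung, fell by 3.06 (adjusted p = 3.06e-05), as did Spry1 and Phlda1.

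Chuk, which encodes IKK alpha, a kinase of the NF-kappaB pathway, had 60.5, 71.8, 60.5, 53.2 and 87.8 CPM against 50.4 ± 2.74, all above the controls but not past the threshold (log2 change 0.41, SE 0.18, adjusted p = 0.0778), and it passed without tumour-bearing library 4 (0.0286) and in limma-voom with a weight per group (0.0332). In the NF-kappaB list 3 of 18 rose and 7 fell, with a median of 0.18. On log2(TPM + 1) the counts were 1 and 8, at a median of -0.37. The risers were the kinases Ikbkb and Ikbke and the subunit gene Nfkb2. Ikbkb and Nfkb2 did not pass on that scale (log2 changes 0.07 and 0.25, adjusted p = 0.691 and 0.129). Ikbke rose by 1.99 (SE 0.31, adjusted p = 5.92e-04), and Traf1, an adaptor of the TNF receptors, fell by 2.87 (SE 0.26, adjusted p = 3.02e-05). Without control 2 or control 3 the falls numbered 4, and without tumour-bearing library 3 or 4 the rises numbered 5. Ikbkb did not pass when any 1 control was left out (up to 0.0713).

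Of 20 p53 pathway genes and tumour suppressors 7 rose, near the 30.4% of all genes, and 3 fell (median 0.33). With log2(TPM + 1) the balance turned, to 4 and 7 (median -0.10). Trp53 had 90.9, 101, 68.7, 64.4 and 54.5 CPM against 33.9 ± 2.46 (log2 change 1.17, SE 0.22, adjusted p = 0.00173), and the p53 targets Bax, Ccng1, Phlda3 and Zmat3 rose, while Cdkn1a and Mdm2 did not pass (log2 changes -0.66 and 0.60, adjusted p = 0.138 and 0.164). Phlda3 did not pass on either TPM scale (up to 0.0610). Cdkn1a passed as lower without library 4 (0.0203) and on both TPM scales (up to 0.0103), and without library 2 Mdm2 as higher (0.0326). Apc, Rb1 and Cdkn2b fell, and without tumour-bearing library 5 the falls numbered 5. Among 18 imprinted and oncofetal genes 8 rose and 5 fell (median 0.25), and 6 and 7 with log2(TPM + 1) (median -0.18). Hmga2, a chromatin protein of embryonic cells, rose from 0.207 ± 0.0803 to 189, 373, 599.5, 187 and 619 CPM (log2 change 10.88, SE 0.76, adjusted p = 7.84e-06). H19, an imprinted long RNA, had 59.1, 1224, 3.83, 517 and 4.57 CPM against 1.36 ± 0.372 (adjusted p = 0.0132), high in libraries 2 and 4 and near the controls in 3 and 5, and it did not pass without control 1 or 3 (up to 0.0524) or with log2(TPM + 1) (0.0676). Peg10 and Plagl1, imprinted genes of the placenta and of growth control, fell by 5.79 and 5.52 (adjusted p = 1.07e-06 and 4.09e-06).

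Of 25 Wnt genes 8 were higher, near the 30.4% of all genes, and 12 lower (median -1.08, and 5 and 15 with log2(TPM + 1)). The ligand Wnt10a rose from 0.0519 ± 0.0201 to 20.6, 41.5, 42.4, 56.7 and 23.04 CPM and Wnt7b by 4.67 (adjusted p = 4.17e-06 and 1.55e-05). The feedback targets Axin2, Nkd1 and Notum fell by 2.74, 4.42 and 3.51, as did Dkk3, of the Dickkopf family, by 2.80 (adjusted p = 7.14e-06). Hox genes, which mark position along the body, fell in 11 of 17 and rose in 2 (median -2.0; with log2(TPM + 1) none rose), Hoxa5, needed for lung development, from 40.3 ± 3.77 to 1.47 to 5.12 CPM and Hoxb5 by 3.36 (adjusted p = 4.69e-05 and 3.72e-05). Squamous and basal genes rose in 8 of 13 and fell in 2 (median 5.33). Counts with log2(TPM + 1) were 4 and 2, at a median of 0.48. Of the 13 genes, 2 were gained transcripts, which could pass the count filter only through tumour-bearing libraries, so their direction is no finding. Krt7, of simple epithelium, had the smallest adjusted p in the squamous and basal list (3.39e-05), and Sox2, a factor of airway basal cells, fell by 5.86 (adjusted p = 3.22e-04). The basal cell gene Krt5 did not pass (log2 change 4.74, adjusted p = 0.0514), and it did without tumour-bearing library 1 (0.0251) or 3 (0.0190).

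Of 24 collagen and matrix genes 4 rose and 8 fell, the falls near the 29.3% of all genes (median -0.73). These counts were 3 and 13 with log2(TPM + 1). Col1a1, the main chain of fibrillar collagen, had 243, 266 and 273 CPM in controls and 321, 797, 198, 292 and 455 in tumour-bearing libraries, overlapping and not past the threshold (log2 change 0.66, SE 0.41, adjusted p = 0.186). It was 76.0% to 306% of the control mean, where the summed lung fibroblast genes were 6.38% to 13.3%. Col18a1, a basement membrane collagen, rose by 3.60 (adjusted p = 3.52e-04), and Fbln5, which assembles elastic fibres, and Col6a2, of microfibrils, fell by 3.61 and 1.99 (adjusted p = 1.41e-05 and 1.07e-04). Of 21 matrix protease genes and inhibitors 10 rose and 6 fell (median 1.34). Mmp7, matrilysin, an epithelial protease, had 668, 32.3, 21.6, 904 and 118 CPM and 0.103 ± 0.151 in controls (adjusted p = 0.00129), most in libraries 1 and 4. The inhibitor Timp3 fell from 1089 ± 24.8 to 82.5, 125, 119, 102 and 123 CPM (adjusted p = 2.36e-06) and the protease Mmp19 by 2.45 (adjusted p = 3.46e-05). Genes of epithelial-mesenchymal transition were called in 7 of 20 each way (median -0.06), near the shares of all genes (30.4% higher and 29.3% lower). The repressors Zeb1, Zeb2 and Snai1 fell, and the risers included Fn1, S100a4 and Axl. Vim, vimentin, had 1486, 1451, 3308, 559 and 4566 CPM against 723 ± 29.7 (log2 change 1.65, adjusted p = 0.0400). Library 4 lay under the controls, and the call was lost without any 1 control, without tumour-bearing library 3 or 5, in limma-voom and on both TPM scales (adjusted p from 0.0654 to 0.187).

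Leukocyte genes were lower or did not pass, with a few risers. Ptprc, which encodes CD45 of all white cells, had 62.6, 80.1 and 83.2 CPM in controls and 15.1, 9.18, 20.6, 6.99 and 6.02 in tumour-bearing libraries (log2 change -2.70, SE 0.39, adjusted p = 3.57e-04), all below the controls and most in libraries 1 and 3. B and plasma cell genes fell in 10 of 15 (median -3.17), Cd79a, of the B cell receptor, from 17.4 ± 7.16 to 1.75, 1.53, 0.903, 0.269 and 0.318 CPM (log2 change -4.18, adjusted p = 5.06e-04) and Ms4a1, which encodes CD20, by 5.23 (adjusted p = 7.35e-04). The antibody chain genes Igha and Jchain did not pass, and libraries 1 and 3 held them above the control means (for Igha 70.8, 14.8, 104, 14.4 and 10.3 CPM against 35.02 ± 1.93). T and NK cell genes fell in 8 of 20 (median -1.76), in 15 without tumour-bearing library 3 and in 18 on both TPM scales. Cd3e, of the T cell receptor complex, had 1.82, 0.258, 1.75, 0.455 and 0.245 CPM against 3.16 ± 0.768, below the controls in all 5 libraries but not past the threshold (log2 change -1.79, SE 0.70, adjusted p = 0.0516), and it passed in DESeq2 (0.0213), limma-voom (0.0136) and on both TPM scales (up to 0.00755). The NK cell receptor gene Ncr1 fell to 0.0327, 0, 0.0681, 0 and 0 CPM from 1.65 ± 0.462 (adjusted p = 1.95e-04) and Klrb1c, another, by 3.48 (adjusted p = 0.00104). Cd8a, of cytotoxic T cells, did not pass (log2 change 0.01), at 4.25, 0.238, 8.64, 0.724 and 0.489 CPM against 2.86 ± 0.803, with libraries 1 and 3 above the control mean.

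Myeloid genes were mixed. Of 20 macrophage and monocyte genes 4 rose and 4 fell, and without tumour-bearing library 5 the rises numbered 8. The median was 0.21. On log2(TPM + 1) the counts were 3 and 7, at a median of -0.40. Arg1, arginase 1, which depletes arginine and marks alternatively activated macrophages, rose from 1.78 ± 0.688 to 48.1, 90.1, 96.2, 122 and 76.0 CPM (log2 change 5.60, SE 0.44, adjusted p = 1.40e-05). Spp1, osteopontin, which macrophages and carcinoma cells secrete, had 3916, 3442, 4623, 855 and 2129 CPM against 79.1 ± 13.3 (log2 change 5.24, adjusted p = 1.02e-04). The macrophage receptor genes Adgre1 and Csf1r fell by 1.47 and 1.17 (adjusted p = 0.0146 and 6.47e-04), and the complement genes C1qa, C1qb and C1qc did not pass (adjusted p = 0.0702, 0.0815 and 0.0549), but passed as higher without library 5 (0.00702, 0.00262 and 0.00456). Alveolar macrophage genes fell in 7 of 13 and rose in 1 (Plet1, not called on either TPM scale, up to 0.0634). Krt79 fell by 3.81 and Fabp1, a fatty acid binding protein, went from 5.73 ± 1.03 to 0 to 0.122 CPM (adjusted p = 7.67e-05 and 4.15e-05), and Marco, their scavenger receptor, did not pass (log2 change -0.89, adjusted p = 0.375, 2.26, 0.754, 1.09, 13.4 and 2.89 CPM against 7.54 ± 0.148), with library 4 the highest; without library 4 it passed (adjusted p = 0.00576), as it did on both TPM scales (up to 0.0377). Dendritic cell genes fell in 7 of 12 (median -2.23), Clec9a, of cross-presenting cells, from 28.3 ± 0.797 to 0.318 to 2.21 CPM (adjusted p = 3.59e-04) and the factor Zbtb46 by 2.85 (adjusted p = 8.15e-06). Among 13 neutrophil genes 3 rose and 4 fell, near the 30.4% and 29.3% of all genes. S100a8, calprotectin, did not pass (log2 change 0.04, adjusted p = 0.942). Cxcr2, Il1r2 and Lcn2 rose, the last not when any 1 control was left out (up to 0.110), without library 4 (0.0580) or on either TPM scale. The granule gene Ngp fell by 2.92.

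Interferon genes rose in 6 of 24, not above the 30.4% of all genes, and fell in 1, a median of 0.28. With log2(TPM + 1) the balance turned, to 2 and 4 (median -0.41). Oasl1 rose by 5.50 (SE 0.67, adjusted p = 1.41e-04) and Mx1 by 3.29 (SE 0.72, adjusted p = 0.00379), and library 2 held the least of each. None of 15 genes of MHC class I presentation rose and 1 fell (median 0.24). With log2(TPM + 1) 4 fell (median -0.44). The 1 called on counts was H2-Q7, whose near copies make its value uncertain (log2 change -2.40, adjusted p = 0.0132, and 0.0527 without control 1). Its neighbour in sequence H2-Q6 did not pass (-1.54, adjusted p = 0.103, but 0.00226 without library 3 and up to 0.0185 on the TPM scales). Of 8 MHC class II genes 4 fell (median -1.73). That count was 7 on both TPM scales, 1 without any 1 of the controls, 2 without tumour-bearing library 1, 2 or 4 and 8 without library 3, whose levels lay near the controls: Cd74, the invariant chain, had 315, 117, 994, 142 and 115 CPM against 1196 ± 19.3. Ciita, the factor that switches class II genes on, and H2-Oa, of class II loading, fell by 2.29 and 1.99 (adjusted p = 0.0206 and 0.0168), Ciita not without control 1 (0.0822) and H2-Oa not without control 2 or 3 (up to 0.0545). Of 21 chemokines 6 fell, near the 29.3% of all genes, and 2 rose (median -0.18, and 1 rose with log2(TPM + 1)). Cxcl12, which holds leukocytes in tissue, fell by 3.28 and Cxcl14 by 3.11, and Cxcl3, which draws neutrophils, rose by 5.59 (adjusted p = 1.67e-05, 1.41e-05 and 9.49e-05).

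Of 20 checkpoint and suppression genes 6 rose and 4 fell (median 0.61), 3 and 6 with log2(TPM + 1), and 10 rising in DESeq2. The 6 risers lay near the share of all genes called higher (30.4%). Cd274, which encodes PD-L1, the target of the antibody in the title of the series, had 17.7, 12.2 and 12.8 CPM in controls and 7.999, 1.25, 11.1, 5.21 and 6.73 in tumour-bearing libraries (log2 change -1.14, SE 0.53, adjusted p = 0.0909). All 5 lay below the controls and library 2 was the lowest, and the gene passed without library 2 (0.0336) or 3 (0.0483), in limma-voom (0.0450) and on both TPM scales. Cd276, the checkpoint ligand B7-H3, rose from 5.94 ± 0.407 to 40.7, 108, 54.6, 56.0 and 58.1 CPM (log2 change 3.42, SE 0.34, adjusted p = 4.59e-05), Tigit, an inhibitory receptor of T and NK cells, rose by 3.06 from a low level, and Entpd1, which encodes the ectonucleotidase CD39 of vessels and leukocytes, fell by 3.86 (adjusted p = 2.68e-05).

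Ctsl, which encodes the lysosomal protease cathepsin L (ENSMUSG00000021477), had 152, 149 and 159 CPM in controls and 260.5, 444, 302, 458 and 779.8 in tumour-bearing libraries 1 to 5. All 5 lay above the controls, library 5 highest. The change was 1.55 (SE 0.35, adjusted p = 0.00440), and it did not pass on log2(TPM + 1) (0.0799) or log2(TPM + 0.1) (0.0735). Of 14 cathepsins 4 rose, near the 30.4% of all genes, and 2 fell (median 0.21). The counts were 3 and 3 with log2(TPM + 1) (median -0.39). Ctse, an aspartic protease of stomach lining, rose from 1.08 ± 0.324 to 117, 144, 77.9, 238 and 448 CPM (log2 change 7.56, adjusted p = 5.10e-05), Ctsd and Ctsz by 1.17 and 0.85, and Ctsf and Ctso fell by 2.49 and 1.25. Ctsb, the lysosomal protease cathepsin B, did not pass (log2 change -0.17, adjusted p = 0.341), but was called lower with log2(TPM + 1) (-0.69, adjusted p = 0.000754) and log2(TPM + 0.1) (-0.69, adjusted p = 0.000900).

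Among 21 secreted factors tied to cachexia or the interleukin-6 family 5 rose and 10 fell (median -0.11), 3 rising with log2(TPM + 1) and 6 falling without control 2 or control 3. Lif, leukaemia inhibitory factor, rose from 10.1 ± 0.653 to 29.9, 18.5, 30.1, 33.9 and 48.7 CPM (log2 change 1.68, SE 0.29, adjusted p = 0.00108), and Inhba, the activin A subunit, from 3.85 ± 1.10 to 14.7, 34.8, 11.3, 10.1 and 30.5 (log2 change 2.40, SE 0.50, adjusted p = 0.00303). Fst, follistatin, which binds activin, rose by 2.48 (SE 0.19, adjusted p = 1.40e-05), and Clcf1 and Lcn2 also rose, though on neither TPM scale. Il6 and Gdf15, both widely measured in cachexia, were lower: Il6 at 0.311, 1.25, 0.255, 0.310 and 0.709 CPM against 1.92 ± 0.256 and Gdf15 at 0.687, 0.436, 0.426, 1.14 and 0.660 against 7.57 ± 0.937 (log2 changes -1.76 and -3.50, adjusted p = 0.0191 and 6.25e-05). The groups did not overlap for either gene, and Il6 did not pass without control 2 (0.0600) or control 3 (0.0581).

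Of 21 complement and coagulation genes 5 rose and 9 fell (median -1.13, and 3 and 13 with log2(TPM + 1)): Proc, the liver anticoagulant protein C, rose by 7.15 (adjusted p = 1.60e-05), and Thbd, its endothelial cofactor thrombomodulin, and Serping1, the C1 inhibitor, fell by 6.15 and 3.50 (adjusted p = 5.77e-06 and 9.98e-07). Of 22 genes of the integrated stress response 5 rose and 8 fell (median 0.01, -0.51 with log2(TPM + 1)), 5 falling without control 1 or control 2. Those of serine synthesis, Phgdh, Psat1 and Shmt2, rose (by 3.46, 2.57 and 1.40), and Nupr1 and Atf3 fell by 2.62 and 2.45, Atf3 not when any 1 control or library 1 or 2 was left out (up to 0.0788). Of 20 NRF2 antioxidant genes 7 rose and 5 fell, near the 30.4% and 29.3% of all genes (median -0.02, and 7 and 9 with log2(TPM + 1)). Tkt, transketolase, rose by 2.03 while Nqo1, a quinone reductase, fell by 3.53 (adjusted p = 4.37e-05 and 7.97e-05).

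The tumour-bearing libraries differed among themselves far more than the controls. The median SD of log2 CPM over genes was 0.49 in the 5 tumour-bearing and 0.10 in the 3 control libraries, an SD of at least 1 was reached by 3011 genes (15.6%) against 188 (0.974%), and edgeR's common biological coefficient of variation was 0.505 against 0.0995. Rank correlations across genes, which are not independent replicates, were 0.944 to 0.968 between tumour-bearing libraries, 0.995 to 0.998 between controls and 0.781 to 0.820 between groups. The main axis of variation, with 78.7% of the variance, separated the groups, and along the next one, with 6.99%, library 2 lay at 101 and library 1 at -69.6, with the other 3 between them.

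**Figure D4:**
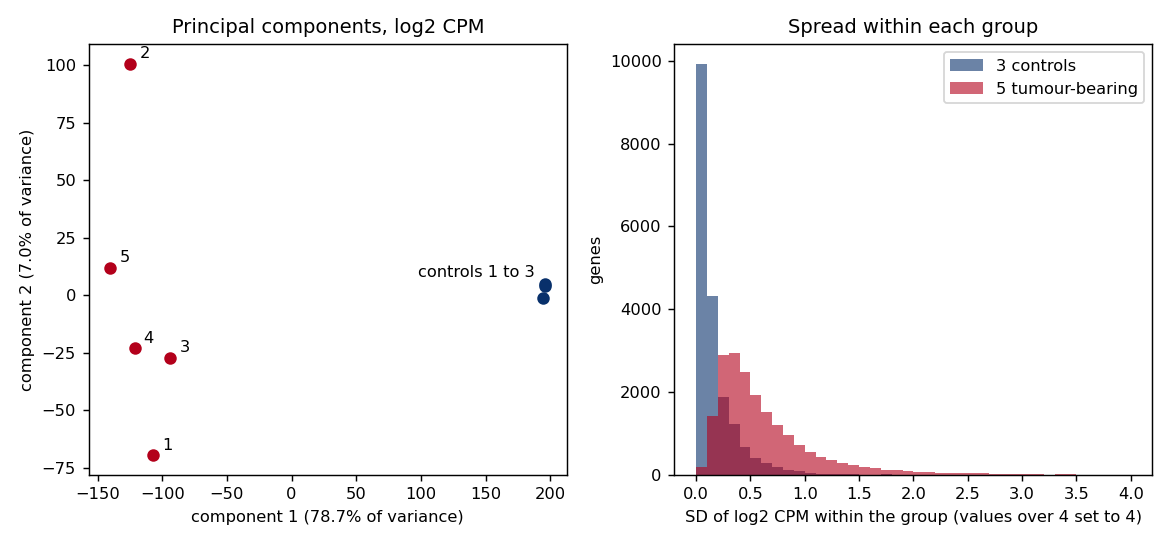
Left, the 8 lung libraries on the first 2 principal components of log2 CPM; red points are tumour-bearing libraries 1 to 5 and blue points controls. Right, the number of genes by SD of log2 CPM within each group: the controls peak under 0.1 and the tumour-bearing libraries at 0.2 to 0.4, with a long tail.

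Library 2 stood apart most often. It had 52 genes at least 8-fold above and 86 at least 8-fold below every other tumour-bearing library, where libraries 1, 3, 4 and 5 had 8, 26, 14 and 5 above and 18, 10, 2 and 18 below. Surfactant genes were nearly absent from it: Sftpb, surfactant protein B, had 187, 0.417, 272, 145 and 96.3 CPM in libraries 1 to 5, and the mean of type 2 genes lay -3.73, -7.52, -3.60, -4.61 and -5.56 from the controls (log2). By contrast its endothelial genes, at -3.99, -4.17, -3.93, -4.33 and -4.01, lay among the others. Heart muscle genes differed the other way, at -6.89, -2.51, -6.98, -6.85 and -6.96, library 2 keeping the most. Interferon genes were lowest there, at 1.44, -1.89, 0.64, 0.35 and 0.70, as were class I genes, at -0.09, -1.61, 1.02, -0.55 and -0.49. Library 2 also held the most cell cycle RNA (2.78, 3.91, 3.33, 2.81 and 2.71) and the most Col1a1.

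Libraries 1 and 4 shared high levels of gut and liver genes. The gut list lay 6.15, 3.79, 3.42, 5.80 and 3.74 above the controls in libraries 1 to 5, and the liver list 5.35, 3.49, 3.24, 4.96 and 2.37. Tff3, a trefoil peptide of goblet cells, had 144, 0.536, 0.119, 115 and 0.587 CPM, Tff1 46.8, 16.9, 0.681, 297 and 1.17 and Duox2, which makes hydrogen peroxide at mucosal surfaces, 132, 0.813, 0.204, 24.8 and 0.783. Each was highest in libraries 1 and 4, and the SD of log2 CPM over the 5 libraries was 4.67 for Tff3 and 3.83 for Duox2. The call of Tff3 (adjusted p = 0.0173) was lost without any 1 of the controls, in limma-voom and on log2(TPM + 1) (adjusted p up to 0.142), Duox2 did not pass (log2 change 5.30, adjusted p = 0.0599, but from 0.0323 to 0.0440 without library 2, 3 or 5), and Tff2 did not either (log2 change 3.52, adjusted p = 0.140). Squamous genes were highest in libraries 4, 5 and 2: Krt5 had 0.605, 20.01, 0.324, 149 and 70.2 CPM and Krt6a 0.949, 108, 2.96, 125 and 56.8. Libraries 1 and 3 held the least of both.

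Library 3 carried the most MHC class II and T and NK cell RNA. Class II genes lay -1.72, -2.47, -0.09, -2.81 and -3.20 from the controls on the log2 scale in libraries 1 to 5, and T and NK cell genes -1.41, -3.19, -0.90, -3.48 and -3.68. Class I genes were highest there, and Cxcl9, a chemokine induced by interferon gamma, had 35.4, 3.67, 95.4, 4.78 and 6.34 CPM. Il12rb1, an interleukin-12 receptor chain, stood at 4.53, 2.697, 43.2, 1.26 and 3.74 and Arnt2, a bHLH-PAS factor, at 0.589, 1.19, 32.02, 0.455 and 0.709 CPM. Library 5 had the most Prl2c RNA and glycolysis RNA (1.83, 1.69, 1.74, 2.52 and 2.94), and the least Alb and Serpina1c, at 309, 21.3, 72.7, 40.8 and 2.35 CPM in libraries 1 to 5.

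**Figure D5:**
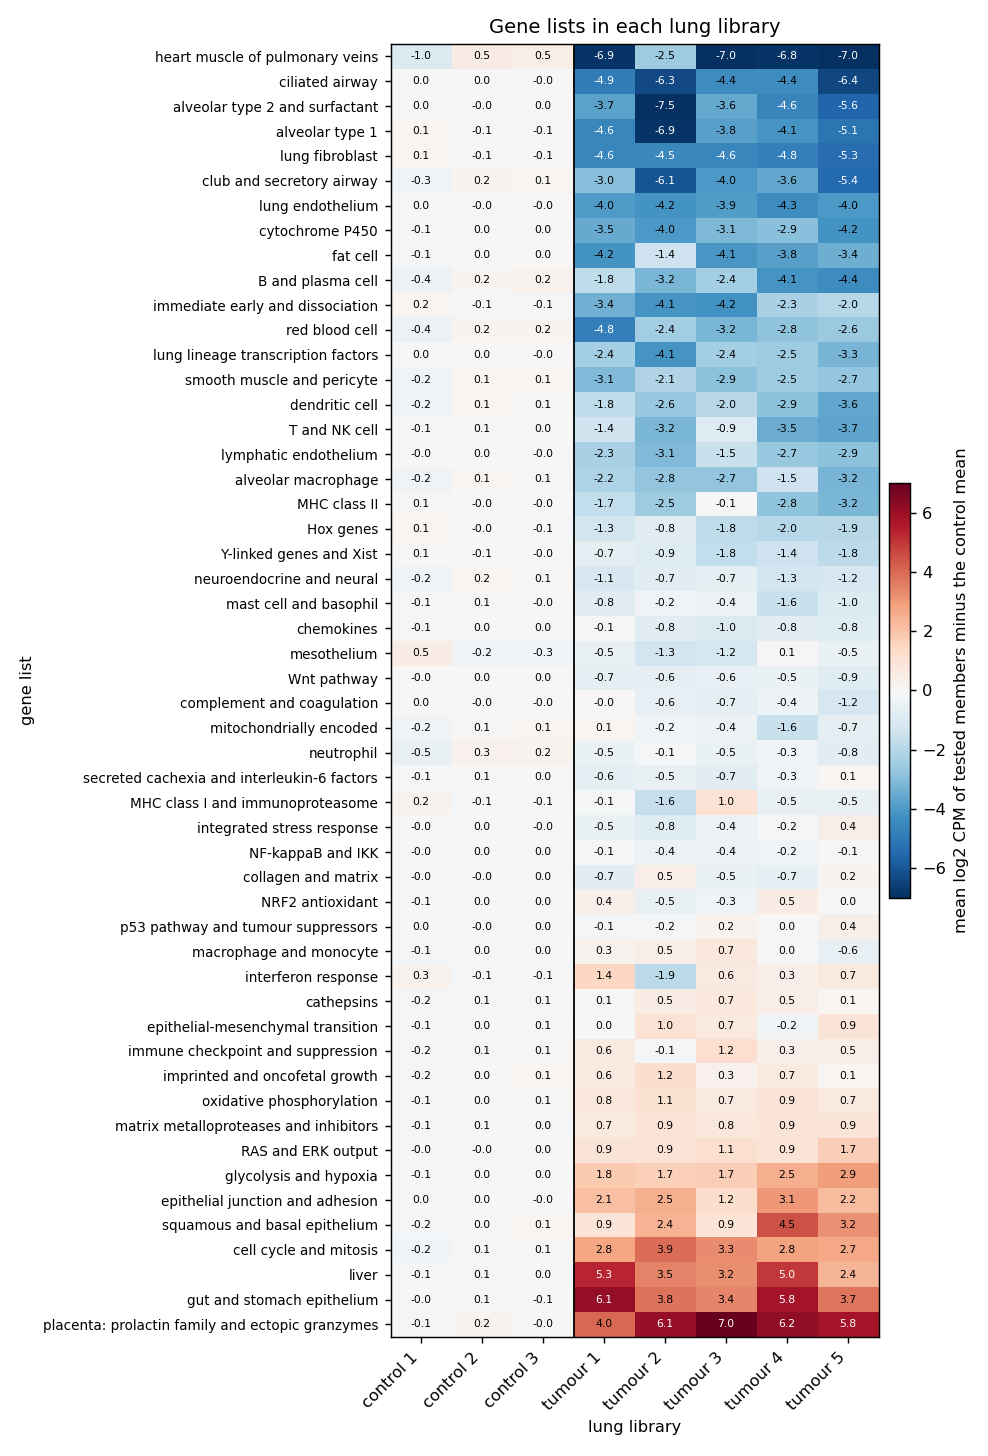
Mean log2 CPM of the tested members of each of 52 gene lists minus the control mean, in each of the 3 control and 5 tumour-bearing libraries; red is above and blue below the controls, and each cell prints its value. Endothelium and fibroblast rows are even across the 5 tumour-bearing libraries, and the type 2, heart muscle, MHC class II, squamous and liver rows are not.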

How the data were processed

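The 3 control and 5 tumour-bearing lung libraries were sequenced in reads of 100 bases from a directional library kit, per the labels' protocols. Trim Galore, STAR 2.7.9a and RSEM 1.3.3 were used, per the submitters' processing notes; the genome build and strand setting are not stated in the sources used here. The deposited files hold expected counts per gene, which the authors' RSEM step estimates by dividing shared reads among genes, so that values of near-identical copies are uncertain. They also hold the deposited TPM, scaled per library and by length. Symbols came from the reference's gene table by Ensembl ID, for 52083 of 55416 genes (94.0%).

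Expected counts were rounded. Genes passing edgeR's filterByExpr in the 8 lung libraries were scaled by the TMM method and tested with glmQLFit and glmQLFTest (R 4.3.3, edgeR 4.0.16, limma 3.58.1, DESeq2 1.42.0), with Benjamini-Hochberg adjustment over all 19300 genes and a threshold of 0.05. CPM values use the scaled library sizes, log2 CPM a prior count of 2, and the SE of a log2 change is its size divided by the square root of F. The procedure was run on simulated data in which few genes changed and both groups had the same spread, unlike these libraries. That run therefore cannot show how calls behave with the unequal spread and many changes found here. Unscaled totals of 47947363 to 61087315 counts per library put 3 counts at 0.0491 to 0.0626 CPM, which limits statements on low genes to counting error. These floors leave out the TMM factors, which ran from 0.8527 to 1.0985. On the scaled CPM printed here, 3 counts therefore lie somewhat lower or higher, depending on the library.

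Groups were taken from the sample titles. The members and gene lists were chosen with earlier results of these data known, and lists therefore get counts and medians but no test. Genes were named by a rule: the 8 largest rises and 8 largest falls among called genes of at least 5 CPM without overlap, the 2 of smallest p in each list, 25 genes set by name (such as Ctsl and Sftpc), the 10 gained transcripts of highest TPM and the 6 genes of largest SD among tumour-bearing libraries at 20 CPM or more. Some genes that the rule names are not reported here. All further genes were chosen after their values were seen, as were families, motifs and promoters, of which those on chromosome 18 were not used. Alternatives were other scalings, DESeq2, limma-voom, log2(TPM + 1) and log2(TPM + 0.1), other count filters, a fit of all 14 libraries, a robust fit, a replicate block and leaving out each library. Muscle libraries were used only for that fit and for the presence of gained transcripts.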

Additional observations from a re-analysis of the deposited data

Results flagged for a closer look

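Among the 5 tumour-bearing libraries, 21 of 333 quantities had an extreme library whose gap to the next one was over 0.71 of the whole range (Dixon's 95% value for 5 samples, on log2 values). Chance alone flags about 1 in 20 groups, and the number here is of that order.

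Library 2 was the extreme one most often. It was low for the lineage factor Nkx2-1 (0.0793 CPM), the surfactant gene Sftpb (0.417 CPM), Clrn3 (0.912 CPM) and the brush border genes Cdhr5 (8.81 CPM) and Myo7b (2.60 CPM), and high for the mitotic gene Ube2c (78.0 CPM). The heart muscle list stood at -2.51 from the controls there (log2) and the fat cell list at -1.43, both high.

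Library 3 was low for Ikbke (14.1 CPM), the chemokine gene Cxcl14 (7.68 CPM), Gata4 (0.0681 CPM) and Vil1 (89.3 CPM), and high for Arnt2 (32.02 CPM) and Cyp1a1 (0.187 CPM). Library 1 was low for Alas2 (1.21 CPM) and Wnt7b (109.7 CPM), and high for Hoxb5 (2.67 CPM), Psat1 (165 CPM) and the chemokine list (-0.14 from the controls). Library 5 was high for Ereg (90.6 CPM) and the list of RAS and ERK output (1.71 above the controls).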

How the results depend on the processing

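No named gene changed direction with a call under the alternatives run, but 2 genes of all tested had opposite calls on each TPM scale, and the medians of 9 of 52 gene lists changed sign with the scaling. On log2(TPM + 1) the genes called higher numbered 3594, and on log2(TPM + 0.1) 3782, so that 31.0% and 32.4% of the calls were higher against 50.9%, and the median of all genes was -0.23 and -0.39. With a filter at a mean of 1 CPM, 161 lost transcripts remained to be counted. With at most 3 counts per library as the off state, gained and lost transcripts numbered 187 and 100, and with a mean of at least 5 CPM as the on state 130 and 53. Leaving out 1 library gave 9405 to 11674 called genes, 4526 to 6008 higher and 4879 to 5674 lower, 323 to 353 gained and 354 to 444 lost transcripts, and a median SD among tumour-bearing libraries of 0.45 to 0.49. Without any 1 of the controls 2 remain, and edgeR pools the spread over all libraries. Deviations of same-numbered control and tumour-bearing libraries from their group means correlated at 0.0366, 0.0577 and -0.000832 across genes. That check cannot tell whether the numbers pair the samples, since tumour-bearing libraries differ far more among themselves than controls do. With the replicate block 4939 genes were called higher and 5359 lower, 335 gained and 365 lost. In limma-voom with a weight per group, tried after seeing the data because the groups differ in spread, 6389 were higher and 6544 lower. Whether a gene named above was called or not stayed the same in 5241 comparisons, which include genes called in neither fit. A call was gained in 83 comparisons and lost in 133. Of 2080 counts of list members 160 moved by over 1.5 times. The cause of these shifts was not tested. A control library with 3 counts of a gene reaches 0.0536 to 0.0598 CPM of its unscaled total, and somewhat less on the scaled CPM. Differences below about that level were not detectable at this depth.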
